A study of Mus musculus with 12 samples.

Results

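The 10 genes described here control how many mitochondria a cell makes and how it joins, divides and clears them. They were chosen by symbol as Ppargc1a, Ppargc1b, Esrra, Nrf1, Tfam, Opa1, Mfn1, Mfn2, Dnm1l and Pink1, out of 55450 genes in the deposited table. All 10 were among the 15708 genes that passed the filter on low counts. Messenger RNA was sequenced from the dissected outer kidney cortex of 12 mice killed at 12 weeks of age, with 3 mice in each of 4 groups. Tg26 mice, a model of HIV-associated nephropathy, have an integrated HIV provirus that cannot replicate, and WT mice lack it. Mice of each genotype were given either INT-747, which is obeticholic acid and activates the bile acid receptor FXR, or NR, which is nicotinamide riboside and feeds the making of NAD. Every mouse was therefore treated, and no untreated group was analysed here. The sources used here give no dose, route or length of treatment, strain or sex, and do not say outright that each library came from its own mouse. The p-values measure the spread between libraries, which may be technical.

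Mitochondria are built when the coactivators of the PGC-1 family bind transcription factors such as the estrogen-related receptor alpha and the nuclear respiratory factors, which switch on nuclear genes of respiration and the factors that copy and read mitochondrial DNA. The network of mitochondria is remodelled by dynamin-like GTPases, some of which fuse the outer or inner membrane while another divides it, and damaged organelles are marked for removal by the kinase PINK1. Proximal tubule cells, which make up most of the kidney cortex, are rich in mitochondria and depend on them for the transport of solutes.

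Total counts per library were 22286343 to 28952177, and transcripts of the mitochondrial genome took 7.94% to 9.97% of them. The summed level of 10 proximal tubule markers was 11352 to 17677 counts-per-million (CPM, on TMM-scaled library sizes), while 4 adipocyte markers summed to 0.041 to 0.953 CPM and 4 skeletal muscle markers to 0 to 0.24 CPM. One library stood apart from its group. Tg26 replicate 3 under NR held 5816 counts of Xist against 1 to 8 in the other 11 libraries, and 0 counts of 4 Y-linked genes against 3031 to 5263, a female pattern in that library and a male one in the rest. The same library had the highest summed levels of loop of Henle, distal tubule, collecting duct and podocyte markers, and results that rest on it are given with and without it.

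In CPM per kilobase of exon, averaged over the 12 libraries, Pink1 was the most abundant of the 10 genes, at 104.3 ± 12.3 (SD, n = 12). Next came Mfn2 at 32.61 ± 3.1, then Esrra at 25.2 ± 3.85 and Mfn1 at 23.51 ± 3.6, and the spreads of Esrra and Mfn1 overlap. Opa1 (15.62 ± 1.62), Dnm1l (14.25 ± 0.738) and Tfam (12.57 ± 1.62) followed with overlapping spreads, then Ppargc1a at 7.432 ± 1.23. Nrf1, at 1.447 ± 0.126, and Ppargc1b, at 1.171 ± 0.38, were the scarcest and also did not differ beyond their spread. The libraries differed least in Dnm1l, with a coefficient of variation of 5.18%, and most in Ppargc1b, with 32.5%; the median over all genes tested was 18.03%.

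**Figure D1:**
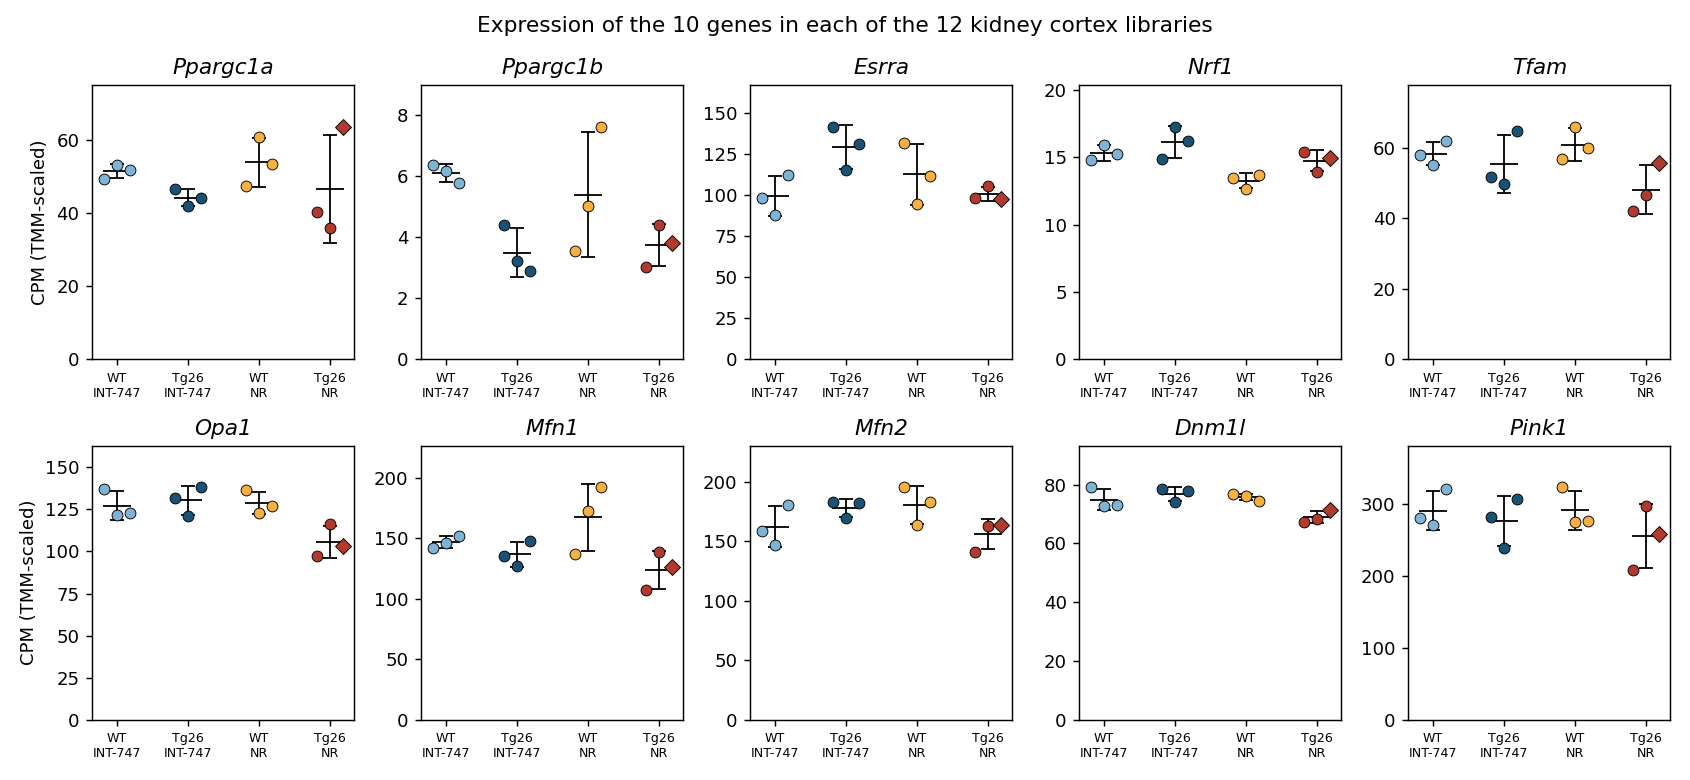
Expression of the 10 genes in CPM (vertical axes, starting at 0) in each of the 12 libraries, by group. Points are libraries, bars are group means with SD (n = 3), and the diamond is Tg26 replicate 3 under NR; that library is the highest of all 12 for Ppargc1a, at 63.6 CPM, while the other 5 Tg26 libraries are at 36.0 to 46.5 CPM.

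None of the 10 genes passed an adjusted p of 0.05 in any of the 7 contrasts (edgeR quasi-likelihood test, Benjamini-Hochberg over all genes). At an unadjusted p under 0.05, Tg26 mice had less Ppargc1b and more Esrra than WT mice under INT-747, and less Mfn1, Opa1 and Tfam under NR. At the same level Opa1, Esrra and Dnm1l were higher under INT-747 than under NR in Tg26 mice. For example, Opa1 averaged 106 ± 9.71 CPM in Tg26 mice under NR and 127 to 130.3 CPM in the other groups (SD, n = 3). In all genes tested, 0.267% were called for genotype under INT-747, 0% under NR and 0.446% for the mean genotype difference over both treatments. For treatment, 0.0127% were called in WT mice, 4.38% in Tg26 mice and 0.427% for the mean over both genotypes. For the interaction, the genotype difference under INT-747 minus that under NR, 0% were called. At these shares a count of 0 among 10 genes does not stand apart from the background in any of the contrasts.

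With an unadjusted p under 0.05, 2 of the 10 genes differed by genotype under INT-747, where 15.3% of all genes did so, and 3 under NR, against 20.7%. For the mean genotype difference the count was 3, against 20% of all genes. For treatment it was 1 in WT mice, against 5.01%, 3 in Tg26 mice, against 27.3%, and 1 for the mean over genotypes, against 17.7%. For the interaction it was 3, against 15.5%. These counts are near the background shares, and the values below describe single genes. limma-voom called 0 of the 10 in all 7 contrasts. DESeq2 called Mfn1 for genotype under NR (adjusted p = 0.0417), Ppargc1b for the mean genotype difference (adjusted p = 0.0229) and Opa1 for treatment in Tg26 mice (adjusted p = 0.021), and 0 in the other 4 contrasts; it also called 6.08%, 7.61% and 15.5% of all genes in these 3, against 0%, 0.446% and 4.38% by edgeR. The contrasts share libraries: both contrasts within Tg26 mice or under NR use the Tg26 mice under NR, so their values are not independent of each other.

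**Figure D2:**
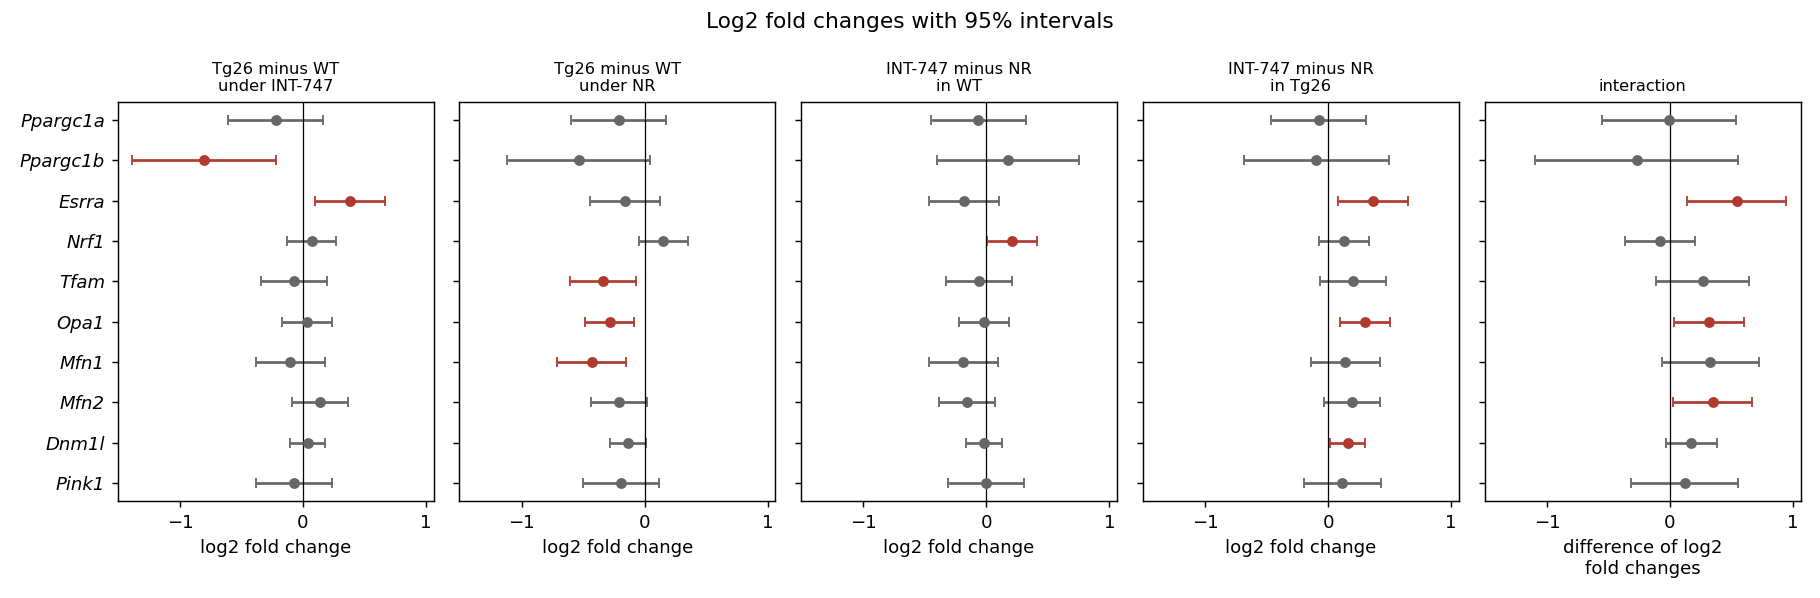
Log2 fold change of the 10 genes (horizontal axes) with the 95% confidence interval of the edgeR fit, for 4 contrasts between groups and the interaction. Red marks an unadjusted p under 0.05, and no gene passed an adjusted p of 0.05; under NR, 9 of 10 genotype differences are below 0.

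Ppargc1a encodes PGC-1 alpha, the coactivator that integrates cold, fasting and energy signals into the making of mitochondria. The gene lies on the minus strand of chr5:51454250-51567726 (mm10). Its transcription is known to be switched on by CREB-type factors, so the 250 bases before its annotated start are shown, from RefSeq on GRCm38.p6, chr5:51567726-51567975, minus strand, with a match to the CRE half-site TGACG (read on either strand) in capitals at bases -49 to -45 from the start. The half-site is held by 17.8% of 32851 windows of the same length, and the full CRE TGACGTCA, held by 1.55%, was not found in this window. The window is the only one matched for Ppargc1a and lies at the outer end of the annotated gene. Starts further inside the gene were not examined, so the missing full CRE does not speak for them.
Ppargc1a: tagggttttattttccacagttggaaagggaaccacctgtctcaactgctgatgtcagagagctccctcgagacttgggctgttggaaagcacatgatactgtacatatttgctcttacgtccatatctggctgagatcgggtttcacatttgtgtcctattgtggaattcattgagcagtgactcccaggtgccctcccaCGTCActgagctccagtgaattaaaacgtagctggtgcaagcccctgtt

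Ppargc1a was at 49.3, 53.1 and 51.8 CPM in WT and at 46.5, 41.9 and 44.1 CPM in Tg26 mice under INT-747. Under NR it was at 47.4, 60.7 and 53.5 CPM in WT and at 40.2, 36.0 and 63.6 CPM in Tg26 mice. Under INT-747 every Tg26 library was below every WT library, and under NR the Tg26 group held both the lowest libraries and, in replicate 3, the highest of all 12. The log2 fold change of Tg26 against WT was -0.22 (SE 0.18, adjusted p = 0.57, edgeR) under INT-747 and -0.21 (SE 0.18, adjusted p = 0.53, edgeR) under NR, with 95% intervals of -0.606 to 0.167 and -0.596 to 0.176. The interaction was -0.01, with an interval of -0.556 to 0.537.

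Leaving out the library with the female pattern changed this call. Without it, Ppargc1a was lower in Tg26 than in WT mice under NR by a log2 fold change of -0.48 (SE 0.11, adjusted p = 0.0497, edgeR) and for the mean of both treatments by -0.35 (SE 0.07, adjusted p = 0.0237, edgeR). Among all genes, that fit called 2.08% and 7.63%, against 0% and 0.446% with all 12 libraries. Under INT-747 its value without the library was -0.22 (SE 0.10, adjusted p = 0.239, edgeR). The 5 remaining Tg26 libraries were at 36.0 to 46.5 CPM and the 6 WT libraries at 47.4 to 60.7 CPM, so the genotypes did not overlap. Of the 10 genes this held for Ppargc1a alone, and 3.14% of all genes had such a gap in those 11 libraries. With all 12 libraries it held for 0 of the 10, against 1.22% of all genes.

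Clock genes moved with these values. A clock score was taken as the difference in mean log2 CPM between genes that peak with Dbp and Per2 and genes that peak with Arntl, a transcriptional activator of the clock. It was -0.192 to 0.663 in WT and 2.448 to 3.168 in Tg26 mice under INT-747. Under NR the WT libraries scored 3.252, 0.156 and -0.608 and the Tg26 libraries 2.867, 3.57 and 0.576. The WT replicate of score 3.252 had the lowest Ppargc1a of the WT mice, and the Tg26 replicate of score 0.576, the one with the female pattern, had the highest of the Tg26 mice. With the score as a covariate, the Ppargc1a genotype difference was 0.14 under INT-747, -0.05 under NR and 0.05 for the mean. Without the library of the female pattern and with the score, it was -0.31 (adjusted p = 0.255, edgeR) under NR and -0.17 (adjusted p = 0.579, edgeR) for the mean. The part of time of day, or of the clock, in the genotype difference was not tested; in the INT-747 groups genotype and clock score cannot be told apart, since the scores do not overlap.

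**Figure D3:**
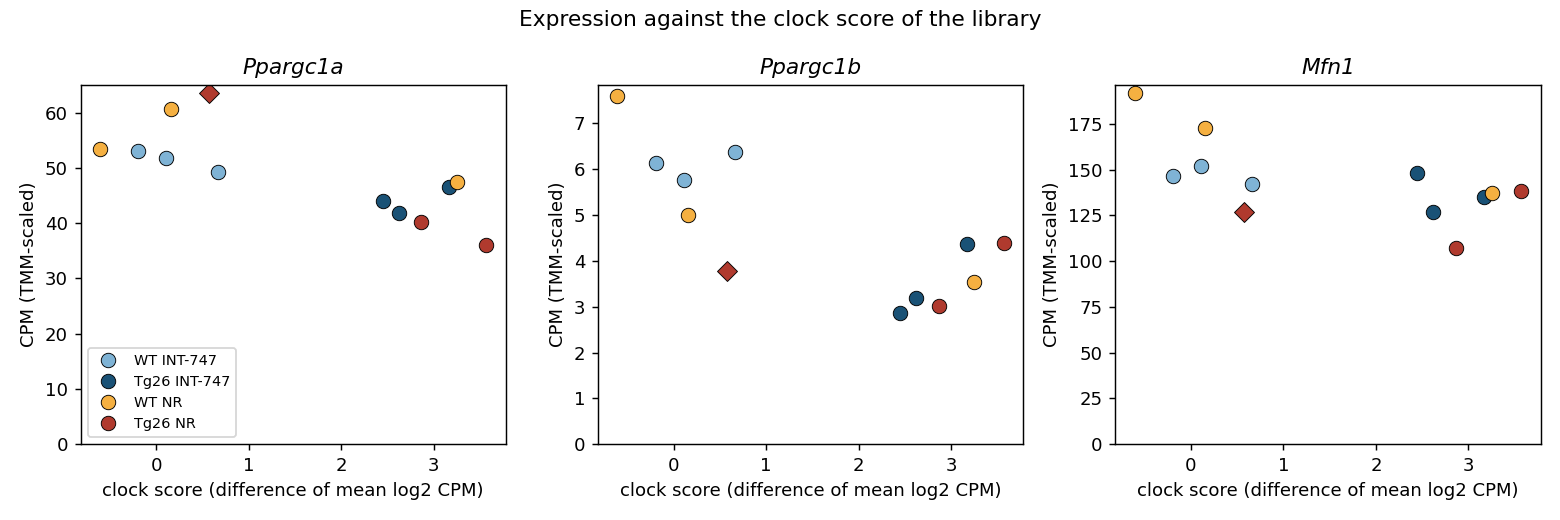
Expression of Ppargc1a, Ppargc1b and Mfn1 in CPM (vertical axes, from 0) against the clock score, a difference of mean log2 CPM (horizontal axes), in the 12 libraries, coloured by group. For Ppargc1a the WT library of score 3.252 is at 47.4 CPM, the lowest WT value and above every Tg26 library but the diamond. The diamond, the Tg26 library of score 0.576, is at 63.6 CPM, above all WT libraries.

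Among 13752 named genes tested, those whose log2 CPM followed Ppargc1a most closely over the 12 libraries were Cep68 (Pearson r = 0.929), Dusp28 (0.912), Klk1 (0.907), Tmem18 (0.906) and Galnt18 (0.906). These are a description of 12 libraries that share groups, normalization and the clock difference.

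Ppargc1b encodes PGC-1 beta, the related coactivator that also drives respiratory genes. It is named here without sequence and lies on the minus strand of chromosome 18. It was at 6.37, 6.14 and 5.76 CPM in WT and at 4.38, 3.19 and 2.87 CPM in Tg26 mice under INT-747. The NR groups had 3.55, 4.998 and 7.60 CPM in WT and 3.01, 4.40 and 3.79 CPM in Tg26 mice. All Tg26 libraries were below all WT libraries under INT-747, while under NR the groups overlapped, because WT replicate 1 was low. The log2 fold change under INT-747 was -0.81 (SE 0.27, unadjusted p = 0.0112, adjusted p = 0.214, edgeR), the largest of the 10 genes, and under NR it was -0.53 (SE 0.27, adjusted p = 0.28, edgeR). With the clock score as a covariate the INT-747 value was -0.49 (adjusted p = 0.837, edgeR). Without WT replicate 3 under NR, the highest library, the NR value was -0.18 (adjusted p = 0.762, edgeR).

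For the mean of both treatments the Ppargc1b difference was -0.67 (SE 0.19, interval -1.082 to -0.257, adjusted p = 0.101, edgeR). Without WT replicate 1 under NR it was -0.78 (adjusted p = 0.0395, edgeR), past the threshold, in a fit that called 2.22% of all genes. Without WT replicate 3 under NR it was -0.50 (adjusted p = 0.22, edgeR). WT replicate 1 also carried the clock score of 3.252, and with the score as a covariate the mean difference was -0.40 (adjusted p = 0.515, edgeR). With this difference, Mfn1 at -0.27 (SE 0.09, unadjusted p = 0.0125, adjusted p = 0.14, edgeR) and Tfam at -0.21 (SE 0.09, unadjusted p = 0.0348, adjusted p = 0.213, edgeR) made up the 3 genes with a mean genotype difference at unadjusted p under 0.05. With the clock score as a covariate these were -0.12 for Mfn1 (adjusted p = 0.668, edgeR) and -0.08 for Tfam (adjusted p = 0.752, edgeR).

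Esrra encodes the estrogen-related receptor alpha, the nuclear receptor through which PGC-1 coactivators reach many respiratory genes. It was at 98.1, 88.0 and 112 CPM in WT and at 142, 115 and 131 CPM in Tg26 mice under INT-747. In the NR groups Esrra was at 132, 94.4 and 112 CPM in WT and at 98.4, 106 and 97.8 CPM in Tg26 mice. The Tg26 mice under INT-747 were above their WT group and above every Tg26 library under NR, whereas the genotypes overlapped under NR. The genotype difference was 0.38 (SE 0.13, unadjusted p = 0.0133, adjusted p = 0.225, edgeR) under INT-747 and -0.16 (SE 0.13, adjusted p = 0.504, edgeR) under NR. The interaction was 0.54 (SE 0.18, interval 0.141 to 0.945, unadjusted p = 0.0124, adjusted p = 0.269, edgeR). Between the Tg26 groups INT-747 was higher by 0.36 (SE 0.13, unadjusted p = 0.017, adjusted p = 0.108, edgeR). Esrra overlaps Trmt112 on the other strand at chr19:6910977-6921813, and whether the counting used strand is not stated, so reads of the pair may have been mixed. With the clock score as a covariate the genotype difference under INT-747 was 0.20 (adjusted p = 0.856, edgeR).

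Ppargc1a and Esrra, partners in the same pathway, did not go together: their log2 CPM had a Pearson r of -0.335 over the 12 libraries, and that of Ppargc1a with Ppargc1b was 0.444. In Tg26 mice under INT-747 the coactivator transcripts were the lower and Esrra the higher of the genotypes. The 16 tested genes listed as targets of PGC-1 and ERR alpha gave 5 higher and 11 lower values in that contrast, with a median of -0.10, beside 0.01 over all genes tested and 48.192% of all genes lower. No target was called there. Under NR 14 of the 16 were lower, with a median of -0.18, and none was called.

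Nrf1, nuclear respiratory factor 1, binds the promoters of many genes of respiration and of mitochondrial DNA upkeep. Under INT-747 it was at 14.8, 15.97 and 15.3 CPM in WT and at 14.9, 17.3 and 16.2 CPM in Tg26 mice. Under NR it was at 13.4, 12.7 and 13.7 CPM in WT and at 15.4, 13.9 and 14.9 CPM in Tg26 mice. The 3 WT libraries under NR were the lowest of the 12. The treatment difference in WT mice was 0.21 (SE 0.09, interval 0.007 to 0.411, unadjusted p = 0.0435, adjusted p = 0.961, edgeR). Over both genotypes it was 0.17 (SE 0.07, unadjusted p = 0.0238, adjusted p = 0.212, edgeR), and the genotype difference was 0.15 under NR with an interval of -0.05 to 0.353. Nrf1 was the only one of the 10 genes with a higher mean in Tg26 than in WT mice under NR.

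Tfam encodes mitochondrial transcription factor A, which packs and transcribes mitochondrial DNA. In human cells its promoter is bound by the nuclear respiratory factors NRF-1 and GABPA, and this is why its window is shown. Beside it are those of Opa1 and Mfn1, fusion genes that were also lower in Tg26 mice under NR (unadjusted p under 0.05, edgeR). The windows are the 250 bases before the RefSeq start on GRCm38.p6: Tfam at chr10:71238045-71238294 on the minus strand, Opa1 at chr16:29579084-29579333 on the plus strand and Mfn1 at chr3:32529232-32529481 on the plus strand. Capitals mark the GABPA letters CCGGAAGT at -47 to -40 in Tfam and at -44 to -37 in Mfn1, and the 10 letters of the palindromic NRF-1 motif at -59 to -50 in Opa1. On either strand CCGGAAGT was held by 2.88% and the NRF-1 letters by 0.782% of the 32851 windows.
Tfam: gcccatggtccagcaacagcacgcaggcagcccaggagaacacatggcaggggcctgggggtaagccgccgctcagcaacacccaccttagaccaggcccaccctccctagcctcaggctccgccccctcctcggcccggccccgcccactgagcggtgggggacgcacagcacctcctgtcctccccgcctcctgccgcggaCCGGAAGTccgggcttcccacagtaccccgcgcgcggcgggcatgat
Opa1: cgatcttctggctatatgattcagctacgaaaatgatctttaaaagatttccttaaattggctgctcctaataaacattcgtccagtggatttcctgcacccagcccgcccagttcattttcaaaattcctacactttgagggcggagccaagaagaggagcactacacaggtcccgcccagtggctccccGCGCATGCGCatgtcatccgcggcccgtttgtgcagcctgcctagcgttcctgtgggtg
Mfn1: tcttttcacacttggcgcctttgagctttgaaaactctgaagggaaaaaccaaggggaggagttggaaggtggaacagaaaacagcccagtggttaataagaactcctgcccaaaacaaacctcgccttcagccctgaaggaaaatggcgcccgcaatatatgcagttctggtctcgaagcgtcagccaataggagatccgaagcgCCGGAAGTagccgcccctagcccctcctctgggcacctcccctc

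Windows were matched for 9 of the 10 genes, 13 windows in all. The ERR letters TCAAGGTCA (0.387% of all windows), the E-box CACGTG (6.02%) and the D-box TTATGNAA (3.07%) were in none of them. Apart from Tfam, Opa1 and Mfn1, no gene had the GABPA or NRF-1 letters in its windows. Dnm1l, also lower in Tg26 mice under NR (-0.14), was among those without them. The CRE half-site TGACG was also in the Mfn1 window, at -70 to -66 and not in capitals, and in each of the 3 Mfn2 windows, which overlap one another. A match is a run of letters and not a measured binding site. The Opa1 and Mfn1 windows were shown because of their values under NR, and whether such letters go with those values was not tested.

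Tfam was at 58.2, 55.2 and 62.0 CPM in WT and at 51.9, 49.8 and 64.8 CPM in Tg26 mice under INT-747. With NR the values were 56.9, 66.1 and 60.1 CPM in WT and 42.2, 46.6 and 55.8 CPM in Tg26 mice. The genotypes overlapped under INT-747 and did not under NR, where all Tg26 libraries were lower. The log2 fold change was -0.07 (SE 0.12, adjusted p = 0.797, edgeR) under INT-747 and -0.34 (SE 0.12, interval -0.609 to -0.072, unadjusted p = 0.0173, adjusted p = 0.168, edgeR) under NR. Without Tg26 replicate 3 under NR it was -0.44 (SE 0.12, adjusted p = 0.0666, edgeR), and without replicate 1 of that group it was -0.27 (adjusted p = 0.436, edgeR).

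Opa1 encodes the GTPase that fuses the inner membrane and shapes cristae. Under INT-747 it was at 137, 122 and 123 CPM in WT and at 132, 121 and 138 CPM in Tg26 mice. Under NR it was at 136, 123 and 127 CPM in WT and at 97.3, 116 and 103 CPM in Tg26 mice. The Tg26 mice under NR held the 3 lowest libraries of all 12, and the other 3 groups overlapped one another. The genotype difference under NR was -0.29 (SE 0.09, unadjusted p = 0.0096, adjusted p = 0.148, edgeR), against 0.03 (SE 0.09, adjusted p = 0.881, edgeR) under INT-747. Between the Tg26 groups Opa1 was higher under INT-747 by 0.30 (SE 0.09, interval 0.1 to 0.504, adjusted p = 0.0741, edgeR). Without Tg26 replicate 2 under NR this was 0.36 (adjusted p = 0.0275, edgeR), in a fit that called 14.5% of all genes. Without Tg26 replicate 3 under NR it was 0.26 (adjusted p = 0.153, edgeR), and without replicate 1 it was 0.24 (adjusted p = 0.182, edgeR). Without Tg26 replicate 3 under INT-747 it was 0.24 (adjusted p = 0.257, edgeR). The interaction was 0.32 (SE 0.13, unadjusted p = 0.0311, adjusted p = 0.296, edgeR).

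Mfn1 and Mfn2 encode the mitofusins, which tether and fuse the outer membranes of neighbouring mitochondria. Mfn1 was at 142, 146 and 152 CPM in WT and at 135, 127 and 148 CPM in Tg26 mice under INT-747. With NR, Mfn1 was at 137, 173 and 192 CPM in WT and at 107, 139 and 127 CPM in Tg26 mice. The groups overlapped under both treatments, and the WT mice under NR were the most variable. Mfn1 had the smallest p of the 10 genes for genotype under NR, with -0.43 (SE 0.13, interval -0.713 to -0.151, unadjusted p = 0.00586, adjusted p = 0.138, edgeR). Under INT-747 the value was -0.10 (SE 0.13, adjusted p = 0.725, edgeR).

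Mfn2 ranged from 141 to 195 CPM over the 12 libraries, with overlapping genotypes under both treatments. Its means were 162 ± 17.3 CPM in WT and 178 ± 7.55 CPM in Tg26 mice under INT-747, and 181 ± 15.95 and 156 ± 12.7 CPM under NR (SD, n = 3). The order of the genotypes was opposite under the treatments, with an interaction of 0.35 (SE 0.15, unadjusted p = 0.0356, adjusted p = 0.304, edgeR). The Tg26 libraries under INT-747 were all above those under NR.

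Dnm1l encodes DRP1, the GTPase that constricts and divides mitochondria. Under INT-747 it was at 79.0, 72.8 and 72.9 CPM in WT and at 78.6, 74.2 and 78.0 CPM in Tg26 mice. Under NR it was at 76.6, 76.3 and 74.5 CPM in WT and at 67.3, 68.2 and 71.3 CPM in Tg26 mice. Again the 3 Tg26 libraries under NR were the lowest of the 12, though by a small step. The difference was -0.14 (SE 0.07, interval -0.282 to 0.008, adjusted p = 0.268, edgeR) for genotype under NR and 0.16 (SE 0.07, unadjusted p = 0.0351, adjusted p = 0.154, edgeR) for treatment in Tg26 mice. The fission gene had the same direction as the fusion genes Opa1 and Mfn1 in both comparisons.

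Pink1 encodes the kinase that builds up on damaged mitochondria and starts their removal. It ranged from 209 CPM, in Tg26 replicate 1 under NR, to 324 CPM, in WT replicate 1 under NR, and the groups overlapped in every comparison. The genotype difference was -0.07 (SE 0.14, interval -0.383 to 0.237) under INT-747 and -0.19 (SE 0.14, interval -0.502 to 0.118) under NR, with adjusted p of 0.828 and 0.468 by edgeR.

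Counted together, the groups did not overlap for 3 of the 10 genes by genotype under INT-747, where 26% of all genes did not overlap, and for 4 under NR, against 19.7%. By treatment it was 1 of 10 in WT mice, against 12.9%, and 4 of 10 in Tg26 mice, against 28%. The 4 genes of the last comparison were Esrra, Opa1, Mfn2 and Dnm1l, all higher under INT-747. Under NR, 9 of the 10 genotype values were below 0, with a median of -0.21, beside -0.01 for all genes tested, of which 51.381% were lower. Under INT-747 it was 5 of 10, with a median of -0.02.

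In CPM, Tg26 replicate 1 under NR was the lowest of the 12 libraries for Tfam, Opa1, Mfn1, Mfn2, Dnm1l and Pink1. Its TMM-scaled library size was 34240177 against a total count of 28952177, the largest rise of the 12, which lowers all its CPM. The part of this scaling in its low values was not tested. This library also had the lowest summed proximal tubule markers, 11352 CPM, and the highest tubular injury markers, 1446.7 CPM, against 219.57 to 273.01 CPM in WT mice under NR. The other Tg26 libraries under NR had 511.51 and 960.94 CPM of injury markers. In replicate 3, the one at 960.94 CPM, Spp1 alone was at 943.7 CPM. Its Havcr1 (0.88 CPM) and Lcn2 (0.727 CPM) were below every WT library under NR. Its Timp1 (0.268 CPM), Vcam1 (10.1 CPM) and Krt20 (5.28 CPM) were above them. Macrophage markers summed to 444.48, 212.95 and 42.639 CPM in the Tg26 libraries under NR and to 28.959 to 55.868 CPM in their WT group. With the proximal tubule score as a covariate, the genotype difference under NR was -0.19 (adjusted p = 0.643, edgeR) for Opa1, -0.27 for Tfam and -0.38 for Mfn1, and 0.04 for Pink1. The part of tissue makeup in these differences was not tested, and in bulk tissue fewer tubule cells and less RNA per tubule cell cannot be told apart.

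Over the 12 libraries, the closest pair was Opa1 and Dnm1l, whose log2 CPM had a Pearson r of 0.871, followed by Esrra and Mfn2 (0.826) and Tfam and Mfn1 (0.759). After the group means were taken out, these were 0.582, 0.845 and 0.547. The 45 pairs had a median r of 0.418 and ran from -0.491, for Nrf1 with Mfn1, to 0.871; 33 were above 0. The libraries share groups, scaling and tissue makeup, and these values describe them only.

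Other genes of the same processes were listed from textbook knowledge. Under NR, 19 of 23 other biogenesis genes, 12 of 15 other fusion genes, 8 of 12 other fission genes and 23 of 25 other mitophagy genes were lower in Tg26 mice. Their medians were -0.13, -0.20, -0.06 and -0.24, and none of these genes was called, as was true of all genes in that contrast. Among those of smallest p were Prkaa2, a catalytic subunit of the energy sensor AMPK, at -0.41 (adjusted p = 0.144, edgeR), and Yme1l1, a protease that cuts OPA1, at -0.20 (adjusted p = 0.168, edgeR). Of the fission and mitophagy genes, Mtfr1, a fission regulator, was at -0.55 (adjusted p = 0.125, edgeR), and Sqstm1, an adaptor that carries marked cargo to autophagosomes, at -0.64 (adjusted p = 0.127, edgeR). Sirt3, a mitochondrial deacetylase among the PGC-1 targets, was at -0.41 (adjusted p = 0.125, edgeR). All 13 messenger RNAs of the mitochondrial genome were lower too, with a median of -0.21, and also uncalled. The genotypes did not overlap under NR for 3 of these 13, against 19.7% of all genes. For mt-Co1, Tg26 replicate 3 under NR was the highest of the 12 libraries, at 40749 CPM. Tg26 replicate 1 under NR was the lowest, at 27193 CPM.

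Under INT-747 the genotype medians of these lists lay between -0.10 and 0.09, and 0 genes were called. Between the Tg26 groups the medians were 0.09 for biogenesis, 0.18 for fusion, 0.11 for fission, 0.08 for mitophagy, 0.06 for the PGC-1 and ERR alpha targets and 0.21 for the mitochondrial messenger RNAs, beside -0.04 for all genes. Here 5 of 104 listed genes were called, all higher under INT-747. That is 4.81% of them, near the 4.38% called among all genes, so the count is no result about these lists. Cycs, cytochrome c, differed by 0.84 (SE 0.16, adjusted p = 0.0287, edgeR), with 377 ± 43.1 CPM under INT-747 and 211 ± 39.1 CPM under NR (SD, n = 3). Tefm, the elongation factor of mitochondrial transcription, differed by 0.65, and Opa3, a mitochondrial membrane protein, by 0.51. Usp15, a deubiquitinase that counters Parkin in human cells, differed by 0.38, and Tomm7, a subunit of the import pore that holds PINK1 on the membrane, by 0.35. Left out in turn, the libraries ended each call in several of 12 fits: Cycs and Usp15 were called in 7, Opa3 in 6, Tomm7 in 5 and Tefm in 4. None of the 5 was called without replicate 1 or 3 of the Tg26 mice under INT-747, replicate 1 of the Tg26 mice under NR or replicate 1 of the WT mice under INT-747. Tomm7 alone was called without Tg26 replicate 3 under NR. In the order given, these fits called 0, 12, 47, 73 and 63 of all genes, against 688 with all 12 libraries. The lost calls are therefore not particular to these genes. The Cycs value was 0.73 to 0.98 over the 12 fits, with adjusted p of 0.00976 to 0.13.

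For the mean genotype difference 1 of the 104 listed genes was called, 0.962% against 0.446% of all genes, and a single gene does not set the lists apart from the background. Top1mt, the topoisomerase that relaxes mitochondrial DNA, was lower in Tg26 mice, with a log2 fold change of -0.31 (SE 0.05, adjusted p = 0.0403, edgeR). It was at 34.9 ± 1.97 CPM in WT and 27.7 ± 1.70 CPM in Tg26 mice under INT-747, and at 37.6 ± 1.76 and 30.6 ± 0.743 CPM under NR (SD, n = 3). With each library left out in turn its value stayed between -0.33 and -0.29, with adjusted p of 0.0197 to 0.137 (edgeR) over all 12 fits. It was called in 3 of the 12, those without WT replicate 1 or Tg26 replicate 2 or 3 under NR. In that order these 3 fits called 357, 284 and 1223 of all genes. The other fits called 0 to 51, and the fit with all 12 libraries called 70, so the calls of Top1mt went with the number called among all genes.

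**Figure D4:**
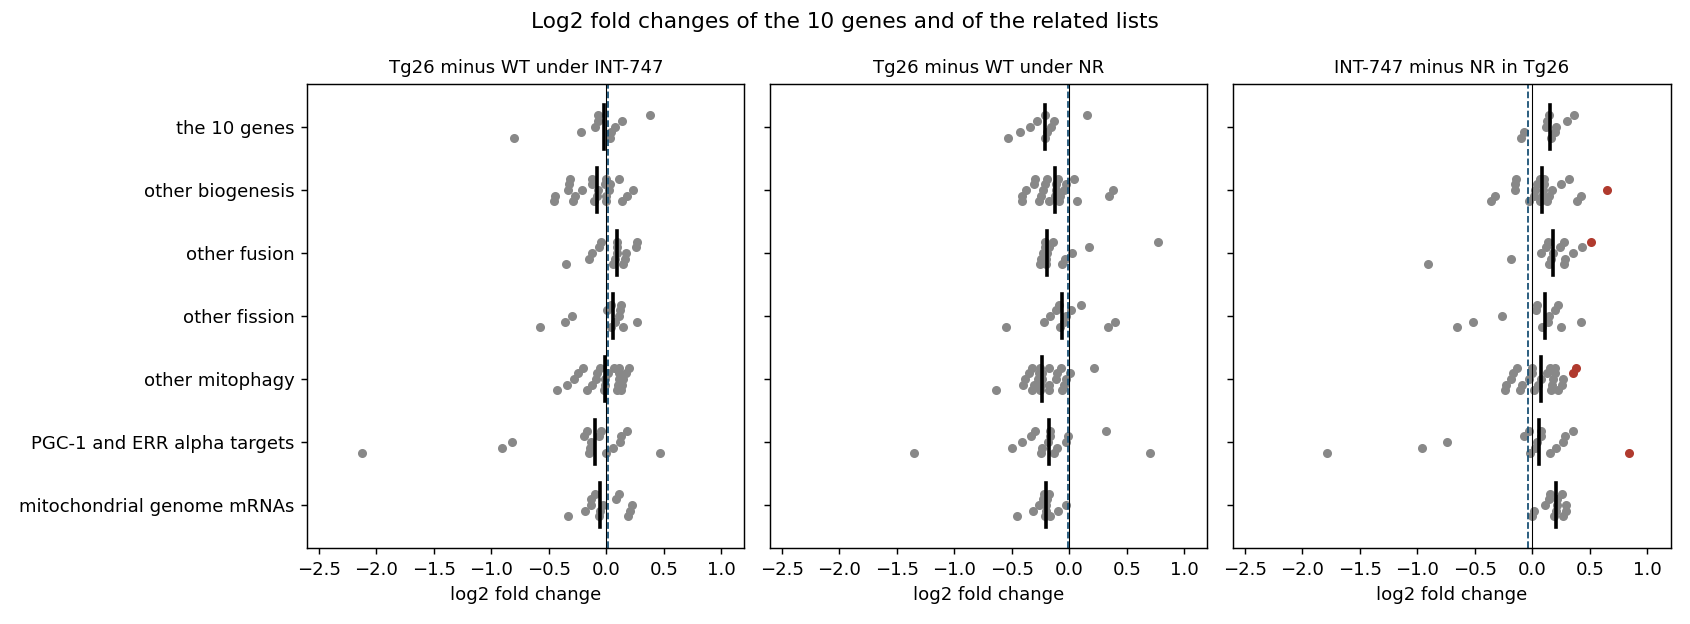
Log2 fold changes (horizontal axes) of the genes of each list (rows, the 10 genes first) in 3 contrasts. Each point is a gene, red points passed an adjusted p of 0.05, black bars are list medians and the dashed line is the median of all genes tested; under NR every list median is below that line.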

How the data were processed

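Kidney cortex messenger RNA was sequenced from stranded TruSeq libraries, per the labels' protocols. The deposited values are RSEM expected counts per gene, and 0 of them were not whole. Per the submitters' processing notes, bcl2fastq 2.17, cutadapt 1.18, STAR 2.7.0f and RSEM 1.3.1 were used with mm10, in an order and with settings not given in the sources used here. Coordinates came from GENCODE release M21, which holds all IDs. Genes were kept with filterByExpr and scaled by TMM. One edgeR 4.0.16 quasi-likelihood fit with robust estimation (R 4.3.3) gave each of 4 groups a mean, with 8 residual degrees of freedom and a common biological coefficient of variation of 0.214. Adjusted p is Benjamini-Hochberg over 15708 genes and calls are under 0.05. Log2 CPM for scores and correlations used a prior count of 2.

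The 10 genes and all lists were chosen with earlier results of these data known. All 10 were named in every contrast, with up to 4 genes of smallest p per list, and the 5 genes most like Ppargc1a. Alternatives were RLE factors, no filter, at least 1 CPM in 3 libraries, DESeq2 1.42.0, limma-voom (limma 3.58.1), no robust estimation, a replicate block, each library left out, and clock or proximal tubule scores as covariates. Total counts per library were 22286343 to 28952177, and 3 libraries per group limit the precision.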

Additional observations from a re-analysis of the deposited data

How the results depend on the processing

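With 12 libraries edgeR called 0 of the 10 genes in each of 7 contrasts, and RLE factors, no filter, the CPM filter, no robust estimation, limma-voom and both score covariates also gave 0. Counts with each library left out ran from 0 to 1 for genotype under NR, for the mean genotype difference and for treatment in Tg26 mice, and were 0 in the other contrasts. The call under NR was 1 without Tg26 replicate 3 (Ppargc1a). For the mean it was 1 without that library (Ppargc1a) and 1 without WT replicate 1 under NR (Ppargc1b). In Tg26 mice it was 1 without replicate 2 under NR (Opa1). DESeq2 gave 1 in each of these 3 contrasts. Of 70 values of a gene in a contrast, 27 changed sign under at least 1 of 22 alternatives; of the 16 with unadjusted p under 0.05, 1 did, namely Mfn1 for the mean genotype difference, at 0.0024 without Tg26 replicate 3 under NR and with the clock score, a fit chosen after seeing the data. The cause was not tested.

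The labels do not say that replicate numbers pair mice, and of 18 pairs of libraries with the same number only 4 had deviations correlated above 0.1 (range -0.229 to 0.259). A replicate block gave 0 calls in every contrast, with -0.80 for Ppargc1b under INT-747 (adjusted p = 0.28, edgeR) and -0.43 for Mfn1 under NR (adjusted p = 0.154, edgeR).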
